A study of Mus musculus with 24 samples.

Results

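The immunity-related GTPases examined here are 10 mouse genes, Irgm1, Irgm2, Igtp, Iigp1, Tgtp1, Tgtp2, Gm4841, F830016B08Rik, BC023105 and Gm12185, out of 39017 genes measured in mouse skin. They were taken as a named list of this interferon-inducible family, and the list was chosen by the fact that some of its genes stayed above healthy skin under systemic JAK1 inhibition, so the levels in that contrast are described without a test. All 10 passed the filter on low counts, among 16248 genes tested.

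The skin came from female C3H/HeJ mice labelled as about 30 weeks old. In this strain grafted skin of an affected mouse induces alopecia areata (AA), an autoimmune loss of hair. There were 24 libraries of bulk dorsal skin RNA, with 6 libraries in each of 4 groups named by the letters A to F. The 8w off Tx group were AA mice that had been dosed and were sampled at the end of the study, 8 weeks after treatment stopped. The systemic JAK1i group were AA mice given Cmpd A, an inhibitor selective for the kinase JAK1, in food at about 100 mg/kg per day for 4 weeks and biopsied at that time. The AA group were mice with induced hair loss and no inhibitor, whose labels carry the word Vec, and the healthy group were control mice without hair loss, both sampled at week 12. By the study's methods the 8w off Tx and systemic JAK1i libraries came from the same 6 mice, and the letters do not say which 8w off Tx library belongs with which biopsy. The systemic JAK1i samples were also taken at an earlier week than the others and from live mice. Treatment and sampling time therefore cannot be told apart in any comparison with that group. All labels give an age of 30 weeks, which cannot hold for samples of the same mice taken 8 weeks apart.

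Immunity-related GTPases are large GTP-binding proteins that mouse cells make after exposure to interferons, above all interferon gamma. In mice the family is known for cell-autonomous defence, in which effector GTPases (the GKS proteins, among them Iigp1, also called Irga6, and Tgtp1 and Tgtp2, which encode Irgb6) load onto the vacuoles of intracellular parasites such as Toxoplasma and break them open. The GMS proteins Irgm1, Irgm2 and Igtp (Irgm3) sit on the cell's own membranes and hold the effectors inactive. Interferon receptors signal through JAK kinases to transcription factors that bind GAS elements and interferon-stimulated response elements in promoters, the IRF factors among those at the response elements.

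The promoters of the chromosome 11 members are shown because they hold the sequences that these factors are known to bind, and the levels given further on belong to these genes. The table of RefSeq promoter windows for GRCm38.p6, each with 250 bases before and 50 after the annotated start, was matched by symbol for 6 of the 10 members. For Irgm2 and Gm12185 these windows lie far inside the GENCODE M21 genes (chr11:58199618-58222782 and chr11:48904656-48992226). From which start the RNA of these genes came was not tested. The letters TTCNNNGAA (a GAS element) and GAAANNGAA (the core of an interferon response element) were searched on both strands, and matches are in capitals in the stretches of 60 bases below, written 5′ to 3′ on the strand of the gene. They lie at chr11:48871411-48871470 (minus strand) for Irgm1, chr11:58214887-58214946 (plus) for Irgm2, chr11:58199496-58199555 (plus) for Igtp, chr11:48992290-48992349 (minus) for Tgtp1, chr11:49064249-49064308 (minus) for Tgtp2 and chr11:48927224-48927283 (minus) for Gm12185.
Irgm1: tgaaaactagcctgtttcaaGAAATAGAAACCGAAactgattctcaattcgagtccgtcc
Irgm2: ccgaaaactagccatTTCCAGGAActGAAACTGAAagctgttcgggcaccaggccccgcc
Igtp: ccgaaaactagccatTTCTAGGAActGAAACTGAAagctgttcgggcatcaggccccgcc
Tgtp1: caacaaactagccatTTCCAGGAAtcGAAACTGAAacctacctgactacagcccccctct
Tgtp2: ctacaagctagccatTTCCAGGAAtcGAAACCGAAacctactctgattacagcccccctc
Gm12185: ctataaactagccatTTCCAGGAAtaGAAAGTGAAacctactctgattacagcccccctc

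In 5 of these 6 promoters the GAS letters were followed by the response element letters with 11 bases from the start of the first to the start of the second. The GAS letters began 45 bases before the annotated start in Igtp, 75 in Irgm2, 81 in Tgtp2, 86 in Gm12185 and 88 in Tgtp1. Irgm1 held 2 overlapping matches of the response element, the nearer starting 24 bases before the gene start, and no match of the GAS letters. At the place where the other members have the GAS element, the Irgm1 sequence had 5 of its 6 fixed letters. Of 32851 promoter windows of the same length, 8.30% held the GAS letters, 8.56% held the response element core and 1.07% held both. The spacing of 11 bases was noticed in these promoters and then counted, and 8 windows in all had it (0.0244%), which were the 5 members, Adar, Olfr382 and LOC115488470. Between members, the 60 bases were 96.7% identical for Irgm2 and Igtp and 91.7% identical for Tgtp2 and Gm12185, while Irgm1 shared 48.3% to 56.7% with the others. A match of letters is a description of the sequence and not evidence that a factor binds there.

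Total counts per library ran over 3444193 to 11233020, with a median of 5517357. Levels are given as counts scaled to a common library size (CPM) by TMM, which compares 1 gene between libraries, and as the deposited TPM, which also adjusts for transcript length and is used between genes. Epidermal markers were detected in every group, at a summed median of 8948 CPM in 8w off Tx, 9085 in systemic JAK1i, 11059 in AA and 10046 in healthy skin. Marker lists of other cell types differed in their course over the groups. Summed T cell markers (8 genes) ran over 41.8 to 120.7 CPM in 8w off Tx, 19.7 to 40.1 in systemic JAK1i, 32.1 to 138 in AA and 20.7 to 44.4 in healthy skin, where Cd8b1 was at 0. Under systemic JAK1i the CD8 genes stayed above healthy skin, though the sum did not. Cd8a had 1.32 to 8.83 CPM against 0.176 to 1.03 in healthy skin, and Cd8b1 had 0.331 to 2.76 CPM. The median log2 fold change of the 8 genes in systemic JAK1i against healthy skin was -0.52. Summed macrophage markers (8 genes) ran over 160.2 to 442 CPM in 8w off Tx, 186 to 508 in systemic JAK1i, 208 to 589 in AA and 153 to 436 in healthy skin, with none at 0. Their medians were 205 CPM in 8w off Tx, 254 in systemic JAK1i, 336 in AA and 220 in healthy skin. The ranges all overlapped, and the 8w off Tx median was not above that of healthy skin. Summed endothelial markers (6 genes) ran opposite to the T cell markers. They had 103 to 158 CPM in 8w off Tx and 53.4 to 126 in AA. In systemic JAK1i they had 202 to 258 CPM and in healthy skin 158 to 331. Their median log2 fold change in AA against healthy skin was -1.36, against 0.00 over all genes. Summed dermis markers (6 genes) ran over 2397 to 4138 CPM in 8w off Tx and 4919 to 9402 in systemic JAK1i. In AA they ran over 1939 to 8582 CPM and in healthy skin over 2544 to 7054. Their median log2 fold change against healthy skin was -0.77 in 8w off Tx and -0.26 in AA. Summed skeletal muscle markers (8 genes) ran over 7081 to 33325 CPM in 8w off Tx, 14648 to 18674 in systemic JAK1i, 5603 to 15157 in AA and 247 to 18937 in healthy skin, where libraries A and E were lowest. The part of these lists in the results was not tested, and in bulk skin a change in the number of cells and a change in the RNA per cell cannot be told apart. Of all libraries, 8w off Tx library E had the lowest mean correlation with its own group, and values without it are given where it decides a result.

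Skin of AA mice held far more RNA of every member than healthy skin. Summed over the 10 genes, the level was 2518 ± 936 CPM in AA and 112 ± 18.6 CPM in healthy skin (SD, n = 6 each). In the edgeR quasi-likelihood test with Benjamini-Hochberg adjustment over all genes, 10 of 10 members were higher in AA, against 20.9% of all genes, and for all 10 the AA libraries did not overlap the healthy ones. The log2 fold change ran from 3.29 to 8.24 with a median of 4.75, against a median of 0.00 over all genes, and the largest adjusted p was 1.9e-06. The members showed the same pattern in 8w off Tx against healthy skin, where 10 of 10 were higher against 16.9% of all genes. Log2 fold changes were 3.26 to 8.50 (median 4.70), with no overlap of libraries in CPM. In TPM some members overlapped, such as Irgm1 (lowest 8w off Tx 7.76, highest healthy 9.23). Both comparisons use the same 6 healthy libraries.

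**Figure D1:**
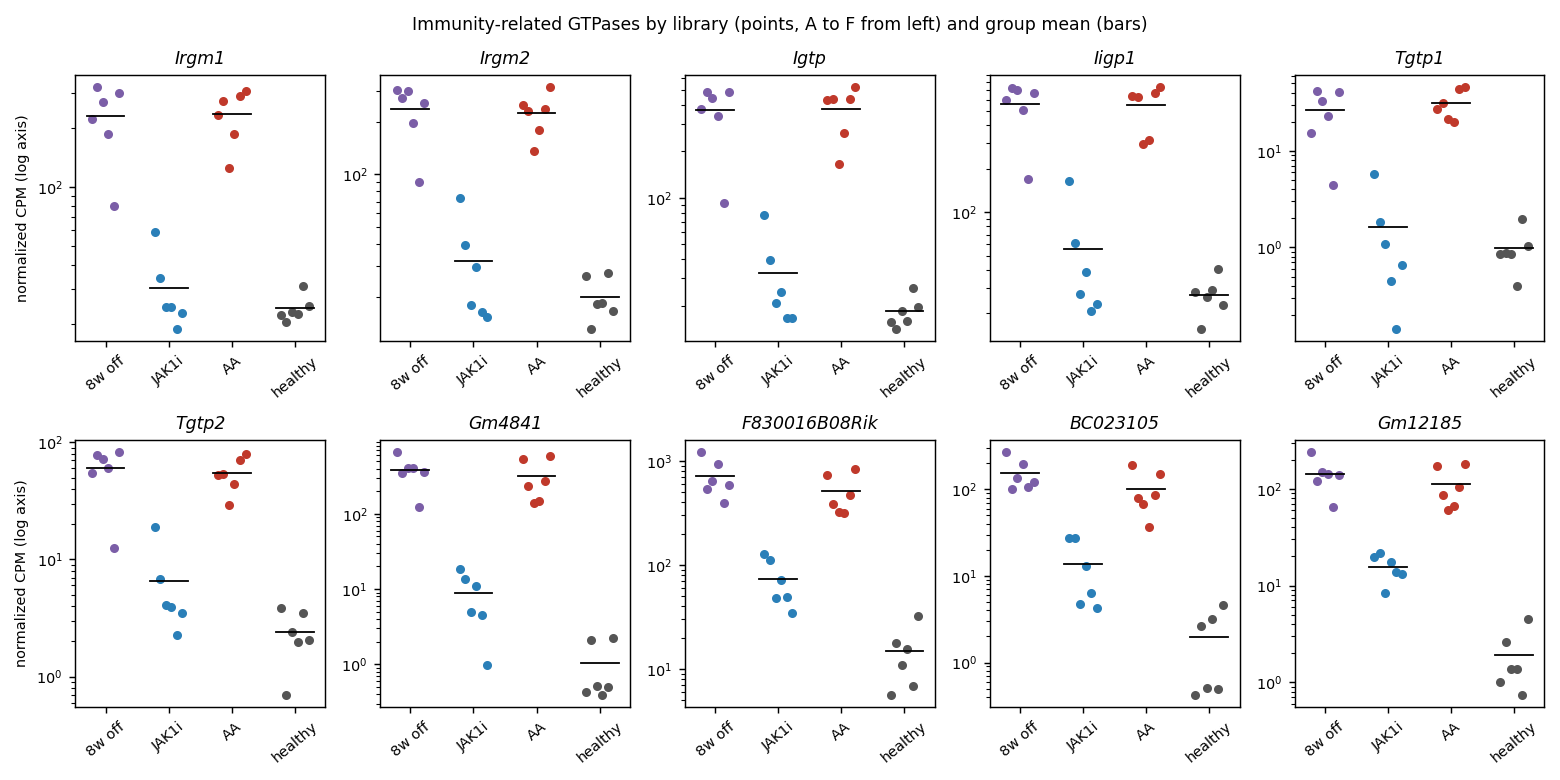
Normalized CPM (log axis) of the 10 members, a panel each, in every library of 8w off Tx, systemic JAK1i, AA and healthy skin, with points for libraries A to F from left to right and a bar at the group mean. The 8w off Tx and AA points lie above all healthy points in every panel, and the systemic JAK1i points lie low, with library A or B on top.

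The GMS regulators Irgm1 and Irgm2 rose least of the family. Irgm1, whose product is needed for control of the effectors, ran from 79.6 through a median of 247 to 323 CPM in 8w off Tx, from 18.8 through 24.4 to 58.7 in systemic JAK1i, from 125 through 252 to 306 in AA and from 20.6 through 22.8 to 31.3 in healthy skin. Its 8w off Tx and AA libraries overlapped each other and lay above every library of the remaining groups, which overlapped each other too. Its log2 fold change in AA against healthy skin was 3.29 ± 0.29 (SE, adjusted p = 1.7e-07 by edgeR), the smallest of the family. Irgm2 had 90.9 to 303 CPM (median 267) in 8w off Tx, 15.2 to 72.9 (23.8) in systemic JAK1i, 136 to 318 (234) in AA and 13 to 27.3 (18.2) in healthy skin. Igtp, the third GMS gene, had 92.7 to 485 CPM (median 410) in 8w off Tx, 16.5 to 77.1 (22.7) in systemic JAK1i, 165 to 525 (431) in AA and 14.1 to 26.1 (17.2) in healthy skin. It rose more than its neighbours in role, by 4.36 ± 0.38 on the log2 scale in AA against healthy skin (adjusted p = 2.1e-07 by edgeR). Irgm2 and Igtp lie side by side on the plus strand of chromosome 11, at 58199618-58222782 and 58199556-58207591 in GENCODE M21 on GRCm38, and share 162 exonic bases. Of all stretches of 76 bases (the read length) in their transcripts, 4.66% for Irgm2 and 7.66% for Igtp also occur in another gene, so a small part of their reads could be split between them.

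Among the GKS effectors, Iigp1 had the highest counts. It ran from 170 through a median of 633 to 726 CPM in 8w off Tx, from 20.7 through 32.8 to 164 in systemic JAK1i, from 299 through 634 to 743 in AA and from 15.5 through 26.9 to 40.4 in healthy skin. The 8w off Tx library with 170 CPM (E) stood apart from the other 5, and the systemic JAK1i library with 164 CPM (A) came close to it. Its log2 fold change in AA against healthy skin was 4.36 ± 0.43 (SE, adjusted p = 8.2e-07 by edgeR). None of the stretches of 76 bases in Irgm1 or Iigp1 transcripts occurs in another gene.

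Tgtp1 and Tgtp2, the pair of genes for Irgb6, had low counts. Tgtp1 had 4.42 to 41.9 CPM (median 27.8) in 8w off Tx, 0.143 to 5.69 (0.876) in systemic JAK1i, 19.7 to 46.0 (29.1) in AA and 0.396 to 1.99 (0.866) in healthy skin. Tgtp2 had 12.6 to 82.6 CPM (median 66.7) in 8w off Tx, 2.28 to 18.9 (4.02) in systemic JAK1i, 28.9 to 79.8 (53.2) in AA and 0.703 to 3.84 (2.22) in healthy skin. For both genes AA stood clear of systemic JAK1i and healthy skin, while 8w off Tx library E fell below systemic JAK1i library A. Without library E the lowest 8w off Tx value was 15.2 CPM for Tgtp1 and 54.8 CPM for Tgtp2, above all systemic JAK1i libraries. Of the stretches of 76 bases in their transcripts, 77.1% for Tgtp1 and 81.2% for Tgtp2 also occur in another gene, nearly all of them in the partner. No source used here says how reads that fit both were counted, so the division between the pair is uncertain and the low counts of both may leave out shared reads. They lie on the minus strand of chromosome 11 at 48985327-48994172 and 49057194-49064206, with Gm12185 at 48904656-48992226 overlapping Tgtp1 by 223 exonic bases, and Irgm1 at 48861968-48871683.

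The remaining members are gene models placed in the family by the list, and no role is given for them here. By the fit to counts, Gm4841 had the largest change of the family. It ran from 124 through a median of 385 to 665 CPM in 8w off Tx, from 0.993 through 7.98 to 18.6 in systemic JAK1i, from 141 through 254 to 586 in AA and from 0.396 through 0.503 to 2.23 in healthy skin, where its raw counts were 2 to 13 per library. With so few counts in healthy skin its log2 fold change of 8.24 ± 0.78 in AA (SE, adjusted p = 4.0e-08 by edgeR) is measured with a wide error. On log2(TPM + 1) its change in AA against healthy skin was 3.70, below the 4.14 of BC023105. F830016B08Rik had 397 to 1218 CPM (median 617) in 8w off Tx, 34.6 to 127 (60.5) in systemic JAK1i, 318 to 843 (428) in AA and 5.69 to 32.1 (13.3) in healthy skin. BC023105, annotated as a processed pseudogene, had 100.4 to 270 CPM (median 128) in 8w off Tx, 4.30 to 27.6 (9.61) in systemic JAK1i, 37.2 to 188 (82.0) in AA and 0.426 to 4.63 (1.57) in healthy skin. It was 51.0-fold higher in AA than in healthy skin by the fit, and 2.19% of its stretches of 76 bases occur in another gene. Gm12185, which RefSeq also lists as Irgb2b1, had 64.4 to 241 CPM (median 141) in 8w off Tx, 8.32 to 21.9 (15.7) in systemic JAK1i, 60.9 to 182 (94.8) in AA and 0.744 to 4.46 (1.37) in healthy skin. Of its stretches of 76 bases, 11.5% occur in another gene, most often Gm5431 (373 stretches) and Tgtp1 (148), so part of its reads could belong to these. For Gm12185 and F830016B08Rik the ranges of systemic JAK1i, healthy and diseased skin did not touch in CPM.

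Iigp1, Gm4841, F830016B08Rik and BC023105 lie within a short interval of chromosome 18 in GENCODE M21 on GRCm38. Gm4841 is at 60268305-60273272 on the minus strand, F830016B08Rik at 60293380-60303016, Iigp1 at 60376027-60392634 and BC023105 at 60441765-60442980, all 3 on the plus strand. The log2 fold change in AA against healthy skin was 4.36, 5.10, 5.67 and 8.24 for the members on chromosome 18, and ran from 3.29 to 5.81 for the 6 members on chromosome 11, so the ranges overlapped.

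On the length-adjusted scale the family had a different order in healthy and diseased skin. In healthy skin Irgm1 had the highest TPM (7.08 ± 1.55, SD, n = 6), ahead of F830016B08Rik (5.12 ± 1.41), Igtp (5.08 ± 1.57) and Iigp1 (4.29 ± 1.5), whose ranges overlapped, and BC023105 had the lowest (0.596 ± 0.551). In AA skin Igtp (77.8 ± 31.0 TPM) and Iigp1 (69.5 ± 27.8) came first, F830016B08Rik (57.5 ± 25.3), Tgtp2 (53.0 ± 17) and Gm4841 (51.3 ± 31.4) followed within their spread, and Gm12185 was lowest (20.6 ± 11). As a share of the family's summed TPM, Irgm1 made up 8.86% in 8w off Tx, 13.9% in systemic JAK1i, 10.5% in AA and 20.5% in healthy skin. BC023105 went the other way, with 9.82% in 8w off Tx, 6.05% in systemic JAK1i, 6.35% in AA and 1.90% in healthy skin.

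Skin of mice on systemic JAK1i held much less RNA of every member than AA skin. The summed level was 271 ± 176 CPM in systemic JAK1i and 2518 ± 936 CPM in AA (SD, n = 6 each). By edgeR 10 of 10 members were lower, against 24.8% of all genes. In CPM the systemic JAK1i libraries lay below all AA libraries for all 10. In TPM some members overlapped, such as Iigp1 (highest systemic JAK1i 34.5, lowest AA 29.8). The log2 fold change ran from -5.16 ± 0.47 (Gm4841) to -2.80 ± 0.37 (F830016B08Rik), with a median of -3.01 against -0.01 over all genes and a largest adjusted p of 4.7e-05. After Gm4841, the largest falls were those of Tgtp1 (-4.30 ± 0.55) and Igtp (-3.53 ± 0.37), and the other members lay between -3.31 and -2.80. The T cell markers moved the same way, with 7 of 8 lower in systemic JAK1i than in AA, as did 4 of 8 macrophage markers.

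**Figure D2:**
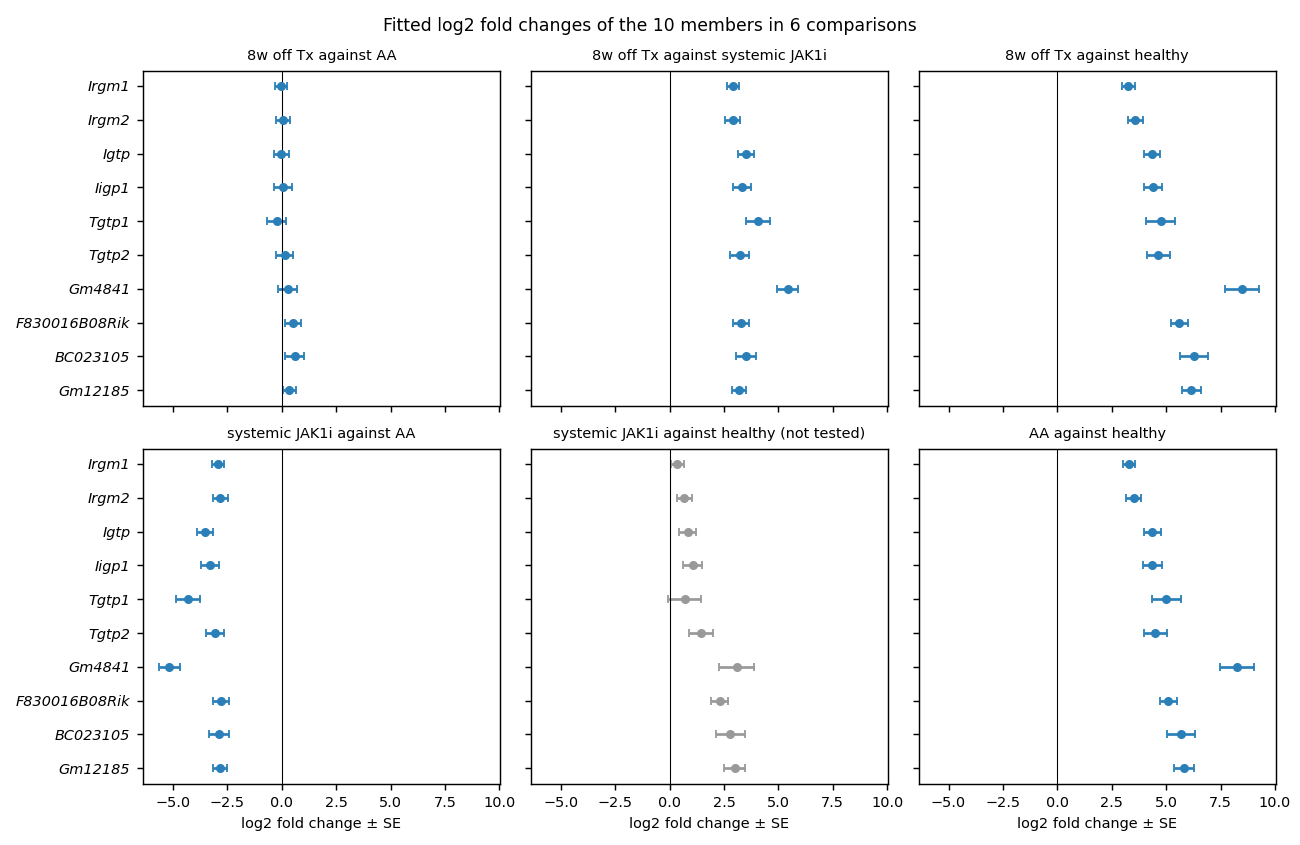
Fitted log2 fold change (x axis, points, with the SE as bars) of each member (rows) in the 6 comparisons. Values lie at about 0 in 8w off Tx against AA, run from 3.29 to 8.24 in AA against healthy skin, and are drawn in grey for systemic JAK1i against healthy skin, which was not tested.

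What stayed above healthy skin under systemic JAK1i differed between members. This contrast chose the list, so its values are a description. The fitted log2 fold change in systemic JAK1i against healthy skin was positive for all 10 members, from 0.35 ± 0.30 (Irgm1) to 3.08 ± 0.80 (Gm4841), with a median of 1.24. In CPM, Gm12185 (2.98 ± 0.46) and F830016B08Rik (2.30 ± 0.40) were the members whose 6 systemic JAK1i libraries all lay above all 6 healthy libraries. Of all genes, 1.42% had that pattern. For Gm4841 and BC023105, 5 systemic JAK1i libraries lay above the highest healthy library, for Tgtp2 4, for Irgm2 3, for Irgm1, Igtp and Iigp1 2, and for Tgtp1 1. F830016B08Rik, with 34.6 CPM in its lowest systemic JAK1i library against 32.1 CPM in its highest healthy library, stood just inside full separation. Just outside it stood BC023105, whose lowest systemic JAK1i library (4.30 CPM) lay under its highest healthy library (4.63 CPM). The separated members depended on the scale. In TPM, Gm12185 overlapped, with 1.86 in its lowest systemic JAK1i library and 2.10 in its highest healthy library. F830016B08Rik (9.55 against 7.83 TPM) and BC023105 (1.47 against 1.41 TPM) were separate.

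Systemic JAK1i libraries A and B carried much of this remainder. They held the highest 2 values of the group for all 10 members, and library A was highest for 8. Summed over the family, libraries A and B had 589 and 356 CPM, the other 4 had 135 to 235 CPM, and healthy libraries had 89.8 to 139 CPM. Without A and B, chosen as an alternative after their values were seen, the median log2 fold change in systemic JAK1i against healthy skin was 0.32, and without library A alone it was 0.56. Tgtp1 (-0.72), Irgm1 (-0.08), Irgm2 (0.01), Iigp1 (0.04) and Igtp (0.12) were then at or below the healthy level, and Tgtp2 stood at 0.53. Gm12185 (2.74), Gm4841 (2.42), BC023105 (1.87) and F830016B08Rik (1.78) stayed well above it. Library A had summed macrophage markers of 508 CPM and T cell markers of 40.1 CPM, the highest of its group for both, and library B had 209 and 36.1 CPM, where the other 4 ran over 186 to 333 and 19.7 to 28.1 CPM. The part of these cells in the family's level was not tested.

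**Figure D3:**
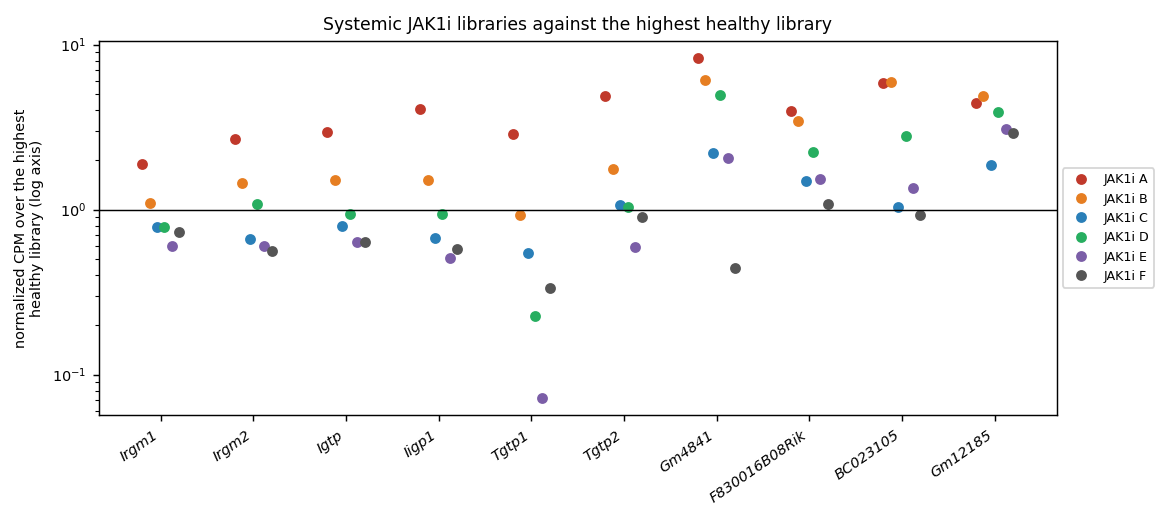
Normalized CPM of each member in the 6 systemic JAK1i libraries (coloured points A to F) divided by its highest healthy library (log axis, line at 1). Libraries A and B are on top for every member, and all 6 points lie above the line for F830016B08Rik and Gm12185.

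Set against the size of the AA rise, the remainder was small. The share of the AA rise left, (systemic JAK1i - healthy)/(AA - healthy) in mean CPM, had a median of 5.67% over the members, 0.864% without libraries A and B and 11.9% on the TPM scale. It was 12.6% ± 4.51 for Gm12185, 11.9% ± 11 for BC023105 and 11.8% ± 7.50 for F830016B08Rik, but 3.09% ± 6.97 for Irgm1 and 2.13% ± 6.79 for Tgtp1 (SD over the 6 systemic JAK1i libraries). Gm4841 shows how the measures part. Its mean CPM in systemic JAK1i was 8.71 times that in healthy skin, the highest ratio of the family, but only 2.47% ± 2.06 of its AA rise was left, with means of 8.95 CPM in systemic JAK1i, 321 CPM in AA and 1.03 CPM in healthy skin. On the TPM scale Gm4841 did not have the highest ratio. Its mean TPM was 6.92 in systemic JAK1i, 51.3 in AA and 2.61 in healthy skin. BC023105 had 5.84, 31.2 and 0.596 TPM in the same order.

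In mice 8 weeks off treatment every member was again above its level under systemic JAK1i, and none was called different from AA. Against systemic JAK1i, 10 of 10 members were higher in 8w off Tx by edgeR, where 19.4% of all genes were, with log2 fold changes of 2.90 to 5.42 (median 3.32) and a largest adjusted p of 1.7e-05. In CPM the libraries of the groups did not overlap for 8 members, and for Tgtp1 and Tgtp2 they overlapped through 8w off Tx library E alone. Against AA, 0 of 10 members were called by edgeR, where 1.37% of all genes were called in either direction, and 0 had an unadjusted p under 0.05 by edgeR, DESeq2, limma-voom or limma on log2 TPM. The log2 fold change in 8w off Tx against AA ran from -0.24 ± 0.43 (Tgtp1, adjusted p = 0.81) to 0.60 ± 0.43 (BC023105, adjusted p = 0.48). These errors do not show that the levels were equal. The 4 members with the largest values were BC023105, F830016B08Rik (0.49 ± 0.37), Gm12185 (0.35 ± 0.30) and Gm4841 (0.26 ± 0.43). Summed over the family, the level was 2892 ± 932 CPM in 8w off Tx and 2518 ± 936 CPM in AA (SD, n = 6 each).

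In some libraries nearly all members were high or low together. In 8w off Tx, library E was lowest for 9 of 10 members, with a summed 1141 CPM against 3000.2 to 3961 in the other 5. In AA, libraries C and D had the lowest 2 values for all 10 members (1371 and 1576 CPM summed), and library F (3780 CPM summed) was highest for 9. Under systemic JAK1i, libraries A and B were among the top 2 for all 10 members. Library F was among the bottom 2 for 9 and library E for 7. Several other libraries held no such order. Healthy library B was lowest for 5 members and among the top 2 for 3, healthy library E was highest for 5 and among the bottom 2 for 3, and 8w off Tx library B was highest for 3 and among the bottom 2 for 4. For Gm12185, F830016B08Rik and BC023105, healthy libraries B, D and F lay above A, C and E. Their summed skeletal muscle markers were 14810, 14728 and 18937 CPM, against 306, 3280 and 247 CPM. In systemic JAK1i these markers ran over 14648 to 18674 CPM. The part of muscle in the members' levels was not tested. In AA, library A was among the top 2 for 5 members and AA library E for 4. For Gm4841, libraries A, E and F had 544, 271 and 586 CPM, and for Irgm1 they had 231, 288 and 306 CPM, so library A was above library E for Gm4841 and below it for Irgm1.

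Among the genes most alike to the family over the 24 libraries, by the root mean square difference of z-scores from the mean of the members, were an unnamed gene (ENSMUSG00000054588, 0.191), Gbp7 (0.228), Tnfaip2 (0.270), Gm43302 (0.273), Tnfsf10 (0.278), Slfn10-ps (0.302) and Apol10b (0.304). The members themselves enter that mean and took 10 of the first 18 places, led by Igtp (0.137) and Iigp1 (0.154).

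Other genes of the family moved in the same directions, with a lower median change than the members. Of 8 relatives outside the list, 7 passed the filter. By edgeR 7 were higher in AA than in healthy skin, against 20.9% of all genes, with a median log2 fold change of 1.68. In 8w off Tx against healthy skin 5 were higher, against 16.9% of all genes. In systemic JAK1i against AA 7 were lower, against 24.8% of all genes. Gm12250, the gene of the effector Irgb10, ranged over 4.42 to 66.9 CPM in 8w off Tx, 0.428 to 6.29 in systemic JAK1i, 23.5 to 72.7 in AA and 0.989 to 5.46 in healthy skin, and its log2 fold change in AA against healthy skin was 4.73 ± 0.62, within the range of the members. Ifi47, which encodes Irgd, changed by 2.98 ± 0.38 and Gm4951 by 3.36 ± 0.41 in the same comparison. Irgq, on another chromosome, changed least (0.42 ± 0.10, adjusted p = 0.0027 by edgeR). In systemic JAK1i against healthy skin Gm12250 had a log2 fold change of 0.30 ± 0.71 (adjusted p = 0.88 by edgeR) and Ifi47 one of 0.40 ± 0.39 (adjusted p = 0.65). Gm4951 had one of 0.85 ± 0.42 (adjusted p = 0.30), and the median of the 7 relatives was 0.30.

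Genes known to act with the family were set beside the shares of all genes called, 20.9% higher in AA than in healthy skin and 24.8% lower in systemic JAK1i than in AA. The guanylate-binding proteins, GTPases that join the effectors at vacuoles, were measured for 8 of 11 listed genes, and 8 were higher in AA than in healthy skin (median log2 fold change 2.68) and 7 were lower in systemic JAK1i than in AA. Gbp8 changed by 4.64 ± 0.65 on the log2 scale in AA against healthy skin. In systemic JAK1i against healthy skin it had 1.84 ± 0.68 (adjusted p = 0.15 by edgeR), where the median of the 8 genes was 0.32. Gbp11 was the gene not called in systemic JAK1i against AA (-0.28 ± 0.46, adjusted p = 0.64 by edgeR). A list of 11 genes held Becn1 and genes of the conjugation system for Atg8 proteins, which with the GMS proteins directs effectors to vacuoles. Of these 11, 2 were higher in AA, Becn1 by 0.25 ± 0.06 and Atg7 by 0.20 ± 0.07, and the median was 0.00. Of 6 genes for ubiquitin and its ligases and adaptors, 1 was higher in AA, the ubiquitin ligase Trim21 by 1.13 ± 0.18. The counts in these last lists were below the share of all genes.

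Upstream of the family the cytokine gene and genes of transcription factors rose in AA. Of 13 interferon signalling genes tested, 6 were higher in AA than in healthy skin, against 20.9% of all genes (Ifng, Stat2, Irf1, Irf8, Irf9 and Socs1) and 1, the receptor gene Ifngr1, was lower (-0.56 ± 0.10, adjusted p = 0.00018 by edgeR). The same 6 genes were lower in systemic JAK1i than in AA, against 24.8% of all genes, and Ifngr1 was higher (0.64 ± 0.10). Ifng was scarce, with 0.360 to 5.21 CPM in 8w off Tx, 0 to 1.65 in systemic JAK1i, 0.264 to 5.16 in AA and 0 to 0.248 in healthy skin. The transcription factor gene Irf1 changed by 1.76 ± 0.29 on the log2 scale in AA against healthy skin and by -1.70 ± 0.29 in systemic JAK1i against AA. Jak1, the target of the inhibitor, had a log2 fold change of 0.09 in systemic JAK1i against AA and was not called.

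**Figure D4:**
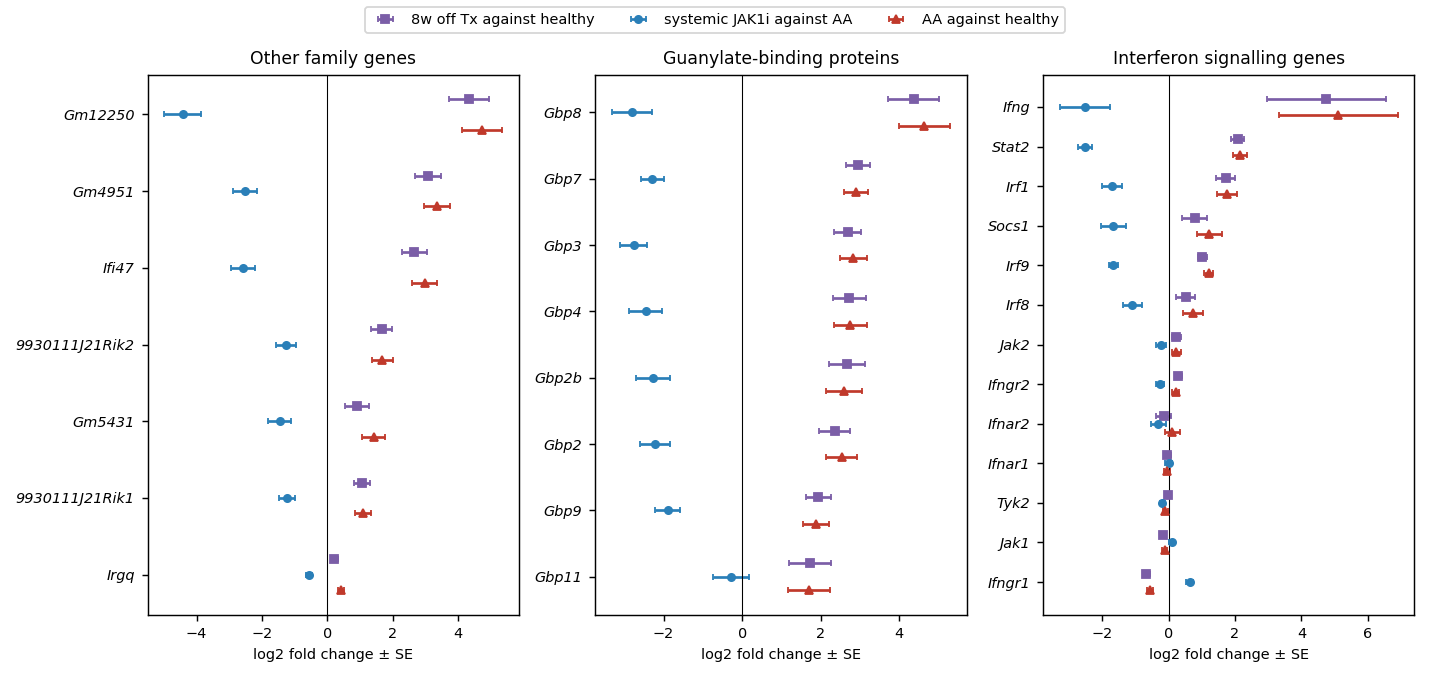
Log2 fold change (x axis, points, with the SE as bars) of family genes outside the list, guanylate-binding proteins and interferon signalling genes in 8w off Tx against healthy skin (squares), systemic JAK1i against AA (circles) and AA against healthy skin (triangles). Gm12250 (4.73 in AA against healthy skin) and Gbp8 (4.64) lie farthest right in their panels, and Ifngr1 lies left of 0 in AA (-0.56) and right of it in systemic JAK1i against AA (0.64).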

How the data were processed

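RNA of 24 skin libraries was measured. The paper reports low RNA integrity in the mouse samples, with libraries made from total RNA depleted of ribosomal RNA and left unfragmented. The part of RNA quality in the difference between the TPM and CPM scales was not tested. The authors aligned reads with HISAT2 2.0.1 to GRCm38 (mm10) and deposited a raw count per gene from featureCounts 1.4.4 and a TPM table. For the annotation release, the strand setting and reads that fit several genes, the setting is not given in the sources. Names and positions came from GENCODE M21. Of the columns in each, 6 match no sample and were left out. Counts were filtered by filterByExpr (minimum count 10), scaled by TMM and fitted with the edgeR 4.0.16 quasi-likelihood test in R 4.3.3 over the 4 groups, with p-values adjusted over 16248 genes and a call at an adjusted p below 0.05. Errors of log2 fold changes are from that fit. DESeq2 1.42.0 and limma 3.58.1 served as alternatives. Labels do not name separate animals for each library, and p-values measure the spread between libraries. The steps were tested on simulated data. The named genes are all 10 members, the genes of the relatives and interferon lists, from other lists the 2 with the smallest adjusted p in AA against healthy skin and the 2 highest in TPM, and the 8 most alike genes, of which not all are printed. Gbp8, Gbp11, Cd8a and the spacing of the promoter letters were picked after their values were seen. Members and lists were chosen with earlier results of these data known. Some listed genes are not reported here.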

Additional observations from a re-analysis of the deposited data

Results flagged for a closer look

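In groups of 6 libraries, the lowest value of 8w off Tx library E stood apart from the other 5 for 4 members on the log2 CPM scale. Its gap to the next library, as a share of the whole range of the group, was 0.781 for Igtp (92.7 CPM), 0.780 for Tgtp2 (12.6 CPM), 0.756 for Iigp1 (170 CPM) and 0.642 for Irgm2 (90.9 CPM). Each passed Dixon's critical value for 6 libraries. These were the only flags among 40 groups looked at, in which chance flags about 1 in 20, and the 4 values come from 1 library.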

How the results depend on the processing

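The number of members called was 10 in AA against healthy skin, 8w off Tx against healthy skin, systemic JAK1i against AA and 8w off Tx against systemic JAK1i, and 0 in 8w off Tx against AA, under every alternative run. These were RLE and upper-quartile scaling, no filter, 20 counts in 6 libraries, limma on log2 TPM (pseudocount 0.1 or 1, unfiltered, or centred), limma-voom with library weights, DESeq2, only the groups compared, a replicate block, and leaving out libraries, among them 8w off Tx A and E, healthy A and E and, added after seeing the data, systemic JAK1i A and B. The replicate letters gave no clear pairing, since at most 2 of 6 letters per comparison had correlated deviations above 0.1. A low correlation cannot show that a letter does not name the same mouse. In 8w off Tx against systemic JAK1i letter E reached 0.383, and in 8w off Tx against AA letters A and B reached 0.302 and 0.414. The main tests treated the libraries as unpaired, and with the letter as a block the counts stayed at 10 and 0. The untested median log2 fold change in systemic JAK1i against healthy skin was 1.24, 1.06 with the block, 0.69 by limma-voom and 0.32 without systemic JAK1i libraries A and B, and leaving out each library in turn gave 0.56 to 1.41. The cause of the limma-voom value was not tested. On log2(TPM + 0.1) the median of all genes shifted by -0.29 in AA against healthy skin, -0.80 in 8w off Tx against healthy skin, 0.65 in systemic JAK1i against AA, -0.51 in 8w off Tx against AA, -1.16 in 8w off Tx against systemic JAK1i and 0.34 in systemic JAK1i against healthy skin. Relative to that shift the members' median was 4.14, 4.08, -3.10, -0.02, 3.31 and 0.82 in the same order. Depth limits Tgtp1 and Gm4841 most, with raw counts of 2 to 8 and 2 to 13 per healthy library.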
